A study of Homo sapiens with 2 samples.

Results

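The genes described here are 34 transcripts of the ATF4 and amino acid response, read in SNU449, an established cell line from a human liver cancer. They were chosen as a named list, mapped by gene symbol to Entrez identifiers, and kept where both libraries listed them and FPKM was at least 1 in either library. FPKM is the read count scaled to transcript length and library size. All 34 listed genes met this rule, out of 14377 genes that reached the same FPKM limit and are called measured. The members nearest that limit were SLC6A9, at 0.87 FPKM with FZD2 shRNA and 1.6 FPKM with control shRNA, and CTH, at 1.99 FPKM with FZD2 shRNA and 1.6 FPKM with control shRNA. Poly(A)-selected RNA came from cells carrying a lentiviral short hairpin RNA (shRNA) against FZD2, a frizzled receptor for Wnt ligands, or from cells carrying a lentiviral negative control shRNA. Both were sampled 7 days after transduction, with 1 library per group. How many hairpin sequences or clones were used was not stated in the labels, and FZD2 was knocked down, not deleted. With a single library on each side there is no replicate error, and significance could not be tested for any difference.

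ATF4 is a basic leucine zipper transcription factor at the end of the integrated stress response. Kinases that sense amino acid shortage, unfolded protein, haem loss or viral RNA phosphorylate the initiation factor eIF2, which lowers general translation while ATF4 mRNA is translated more. ATF4 protein pairs with C/EBP family factors, binds composite C/EBP-ATF elements and raises genes for amino acid synthesis, amino acid uptake and tRNA charging, together with stress factors such as DDIT3 and feedback genes such as TRIB3. Because much of its control is at translation, the mRNA level of ATF4 is not a measure of its protein.

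The composite element is shown first, because it is the sequence through which several members are known to respond. Its core, TGATGNAA, was searched on both strands of RefSeq promoter windows (GRCh38.p14) that run from 250 bases before to 50 bases after an annotated transcript start. Windows were found for 28 of the 34 members, and 8 of these genes held the core (28.6%). The core was in 2.77% of the 11101 measured genes with a window and in 4.46% of all 27305 genes in the table. Members had 45 windows, of which 17.8% held it, against 3.62% of all 35116 windows. These genes were listed as ATF4 response genes, so their share is a description and supports nothing about the list. Of the 10 members at least 2-fold lower with FZD2 shRNA, 4 held the core, namely ASNS, CEBPG, CHAC1 and SLC7A1. Their full windows are printed with the core, or its reverse complement TTNCATCA, in capitals and all other bases in lower case. ASNS lies at chr7:97872359-97872658, minus strand, CEBPG at chr19:33373863-33374162, plus strand, CHAC1 at chr15:40953221-40953520, plus strand, and SLC7A1 at chr13:29595639-29595938, minus strand.
ASNS: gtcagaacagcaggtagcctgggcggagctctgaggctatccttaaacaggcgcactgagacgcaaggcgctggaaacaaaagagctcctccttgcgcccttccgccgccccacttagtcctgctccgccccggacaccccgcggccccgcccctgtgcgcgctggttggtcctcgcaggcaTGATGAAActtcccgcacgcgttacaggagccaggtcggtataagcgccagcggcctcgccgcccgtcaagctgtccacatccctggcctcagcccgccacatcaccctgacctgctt
CEBPG: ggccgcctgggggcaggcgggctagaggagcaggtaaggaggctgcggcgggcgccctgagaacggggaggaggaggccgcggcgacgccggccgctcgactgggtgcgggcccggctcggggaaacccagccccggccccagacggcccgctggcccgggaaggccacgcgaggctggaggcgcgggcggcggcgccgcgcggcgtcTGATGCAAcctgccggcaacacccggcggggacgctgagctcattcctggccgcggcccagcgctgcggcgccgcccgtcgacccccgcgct
CHAC1: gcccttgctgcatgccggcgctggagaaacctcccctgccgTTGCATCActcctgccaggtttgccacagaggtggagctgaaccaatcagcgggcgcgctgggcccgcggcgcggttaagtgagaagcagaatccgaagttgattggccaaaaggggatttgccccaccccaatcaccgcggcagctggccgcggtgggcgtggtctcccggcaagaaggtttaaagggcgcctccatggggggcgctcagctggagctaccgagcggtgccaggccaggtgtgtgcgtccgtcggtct
SLC7A1: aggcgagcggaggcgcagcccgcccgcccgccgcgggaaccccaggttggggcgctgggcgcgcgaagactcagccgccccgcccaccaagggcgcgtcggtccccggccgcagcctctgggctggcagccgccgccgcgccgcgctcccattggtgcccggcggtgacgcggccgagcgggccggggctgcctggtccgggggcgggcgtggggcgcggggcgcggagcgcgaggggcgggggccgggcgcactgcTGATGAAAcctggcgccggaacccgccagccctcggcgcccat

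In CEBPG the core was TGATGCAA and began 42 bases before the start, and in ASNS it was TGATGAAA and began 68 bases before it. CHAC1 carried the reverse complement, 209 bases before its start, and in SLC7A1 the core lay just inside the transcript, from base 8. The other 4 genes with the core were less than 2-fold lower. Shorter stretches around their matches are shown for comparison, at chr1:212565200-212565239, plus strand for ATF3, chr2:64989376-64989415, plus strand for SLC1A4, chr19:46784888-46784927, minus strand for SLC1A5 and chr11:62881720-62881748, plus strand for SLC3A2.
ATF3: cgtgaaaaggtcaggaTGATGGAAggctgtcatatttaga
SLC1A4: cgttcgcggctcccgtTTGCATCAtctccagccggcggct
SLC1A5: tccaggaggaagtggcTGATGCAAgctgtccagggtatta
SLC3A2: taatgtgcaggactccTTACATCAgctcc

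The exact form TGATGCAA was thus present in members on both sides of the 2-fold limit, in CEBPG and CHAC1 (lower) and in SLC1A4 and SLC1A5 (not reaching it). PSAT1, the member with the lowest ratio, had a window without the core, which says only that these letters were not in that window.

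**Figure D1:**
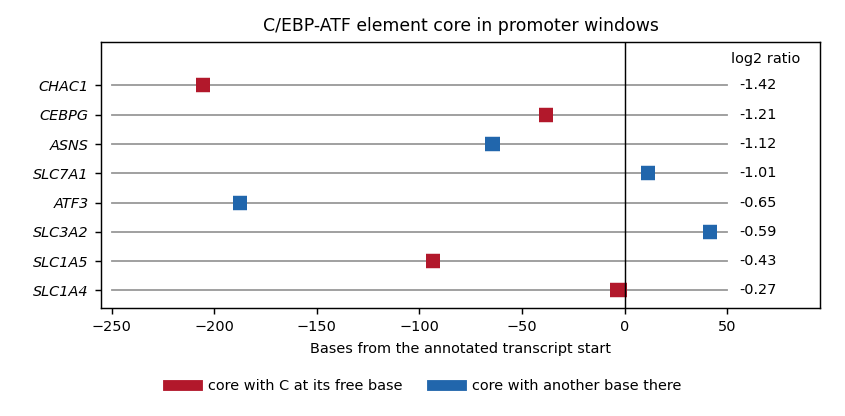
Position of the TGATGNAA core (coloured block, either strand) in 8 promoter windows, in bases from the annotated transcript start, with each gene's log2 ratio of FZD2 shRNA over control shRNA at the right. The genes run from the lowest ratio (CHAC1, -1.42) to the highest (SLC1A4, -0.27), and red blocks (TGATGCAA) occur at both ends.

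As context, the libraries held 8234592 expected counts (FZD2 shRNA) and 8436870 expected counts (control shRNA). The targeted transcript FZD2 was at 15.76 FPKM with FZD2 shRNA and 59.45 FPKM with control shRNA, in the direction of the labels. Its counts of 503.28 with FZD2 shRNA and 1949.91 with control shRNA were not whole, which is taken here as a sign of reads shared with other genes. Of 12 hepatocyte markers 2 were measured, FGB and FGG, and the list summed to 230.52 FPKM with FZD2 shRNA and 193.96 FPKM with control shRNA. ALB was at 0.05 FPKM with FZD2 shRNA and 0 FPKM with control shRNA, and TTR, APOB and APOC3 were unlisted in both libraries, and 10 of the 12 stayed under 1 FPKM in both. The growth protocol calls the cells prostate, yet of 8 prostate markers 3 were measured, the list summed to 9.88 FPKM with FZD2 shRNA and 7.88 FPKM with control shRNA, and KLK2 and KLK3 were unlisted. Leukocyte markers summed to 94.23 FPKM with FZD2 shRNA and 27.74 FPKM with control shRNA over 4 measured of 6, while CD3E was unlisted. LYZ held most of the sum with FZD2 shRNA, at 71.47 FPKM with FZD2 shRNA and 12.31 FPKM with control shRNA. It was called higher (log2 ratio 2.445) and had shared reads, as had 3 of the 4 measured leukocyte markers in all. Endothelial and fibroblast markers summed to 321 FPKM with FZD2 shRNA and 407.6 FPKM with control shRNA over 3 measured of 8, almost all from COL1A1 and COL1A2. Among the 3 measured genes COL1A2 alone was below the control level, at 198.48 FPKM with FZD2 shRNA and 306.36 FPKM with control shRNA. PECAM1 was called higher, at 2.33 FPKM with FZD2 shRNA and 0.41 FPKM with control shRNA (log2 ratio 1.24, shared reads). The part of these marker genes in the results was not tested. In such bulk RNA, fewer cells of a kind and less RNA per cell cannot be told apart.

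Most of the response genes had a lower level in the library with FZD2 shRNA, and fewer passed 2-fold. Ratios are given as log2((FPKM + 1) / (FPKM + 1)), FZD2 shRNA over control shRNA, and a gene is called lower or higher at 2-fold, a log2 ratio of 1 in size. Of the 34 members 10 were called lower and 0 higher, and 30 had a ratio below 0. Over all measured genes 7.41% were called lower, 15.2% were called higher, and 50.1% had a ratio below 0. The members' median was -0.47, beside -0.004 for all measured genes. At a limit of 1.5-fold 16 members were lower, beside 21.7% of measured genes. The members' ratios ran from -1.58 for PSAT1 to 0.52 for SLC7A11. By counting error alone, the 95% interval of the read count ratio lay below equality for 26 members and above it for 2. The same held for 36.8% and 35.5% of all measured genes, so that such an interval is common at this depth.

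The members' ratios split by whether their expected counts were whole numbers. A gene was taken to have shared reads where its expected count was not a whole number, to a tolerance of 0.001, in either library. The counting program was not given, so this meaning was read from the values only, and a whole count does not prove unique reads. The 4 members with a ratio above 0 (ATF5, PSPH, CTH and SLC7A11) were among the 10 with shared reads. All 24 members without shared reads had ratios below 0, beside 64.7% of the 8154 measured genes of that kind, although NUPR1 (log2 ratio 0.075) and GPT2 (log2 ratio 0.06) were just above 0 in TPM. Of these 24, 9 were called lower and 0 higher, beside 10.2% and 4.19% of measured genes without shared reads, and their median was -0.70, beside -0.25. Of the 10 members with shared reads, 1 was called lower and 0 higher, while 29.7% of the 6223 measured genes of that kind were called higher. Their median was -0.27, beside 0.48. Whether shared reads set the 4 higher values was not tested.

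**Figure D2:**
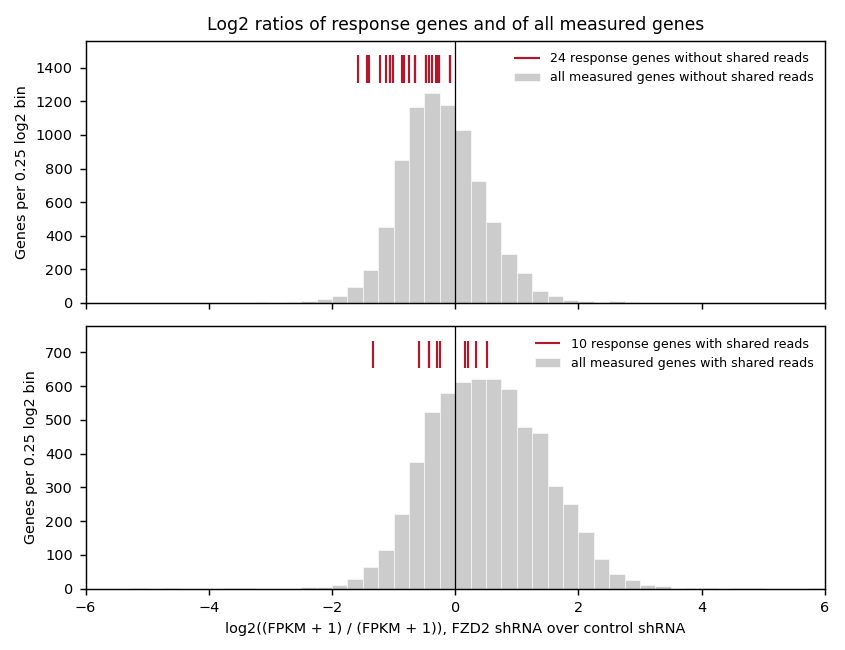
Log2 ratios of all measured genes (grey bars, genes per bin of 0.25) and of the response genes (red ticks), split into genes without shared reads (top) and with shared reads (bottom). The 24 ticks in the top panel all lie left of 0, and the 4 ticks right of 0 are in the bottom panel.

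The serine synthesis and folate enzymes had the lowest median of the roles with more than 1 gene, and their ratios differed widely. PHGDH, PSAT1 and PSPH catalyse the successive steps of serine synthesis from a glycolytic intermediate. PSAT1, the aminotransferase of the middle step, was at 21.77 FPKM with FZD2 shRNA and 67.01 FPKM with control shRNA, 2.99-fold lower. It had 393 reads with FZD2 shRNA and 1287 with control shRNA, for a count log2 ratio of -1.68 (95% counting interval -1.84 to -1.51), and 175 of the 14377 measured genes (1.22%) had a lower ratio. PHGDH, which opens the pathway, was at 25.11 FPKM with FZD2 shRNA and 46.62 FPKM with control shRNA, a log2 ratio of -0.87. PSPH, which closes it, was at 22.28 FPKM with FZD2 shRNA and 19.77 FPKM with control shRNA (log2 ratio 0.17), but its counts of 394.48 with FZD2 shRNA and 359.59 with control shRNA included shared reads, so its level is uncertain. The levels of PSAT1 and PSPH were near each other with FZD2 shRNA, with PSAT1 at 0.98 times PSPH. With control shRNA PSAT1 stood at 3.39 times PSPH.

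Of the 2 mitochondrial folate enzymes, MTHFD2 was called lower and SHMT2, which takes its one-carbon unit from serine, was not. MTHFD2, the methylene-tetrahydrofolate dehydrogenase, was at 8.79 FPKM with FZD2 shRNA and 23.79 FPKM with control shRNA (log2 ratio -1.34, shared reads). SHMT2, the serine hydroxymethyltransferase, was at 35.67 FPKM with FZD2 shRNA and 49.66 FPKM with control shRNA (log2 ratio -0.47). The ratio of the MTHFD2 level to the SHMT2 level was 0.25 with FZD2 shRNA and 0.48 with control shRNA. Together, 2 of the 5 serine and folate enzymes were called lower (40%, beside 7.41% of all measured genes), with a median of -0.87. These 5 enzymes summed to 113.62 FPKM with FZD2 shRNA and 206.85 FPKM with control shRNA.

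Enzymes for other amino acids had a median of -0.65, and 2 of 7 were called lower (28.6%, beside 7.41% of all measured genes). ASNS, which makes asparagine and is a standard readout of the response, was at 7.25 FPKM with FZD2 shRNA and 16.96 FPKM with control shRNA (log2 ratio -1.12). PCK2, a mitochondrial enzyme that makes phosphoenolpyruvate, was at 4.77 FPKM with FZD2 shRNA and 11.03 FPKM with control shRNA (log2 ratio -1.06). In TPM PCK2 was at -0.97, short of 2-fold. Both enzymes listed for proline were below the control level without reaching 2-fold. ALDH18A1, which starts proline synthesis from glutamate, was at 20.15 FPKM with FZD2 shRNA and 36.75 FPKM with control shRNA (log2 ratio -0.84). PYCR1, which ends it, was at 34.52 FPKM with FZD2 shRNA and 45.2 FPKM with control shRNA (log2 ratio -0.38). CBS and CTH, which carry sulfur from homocysteine to cysteine, lay on opposite sides of equality. CBS was at 11.53 FPKM with FZD2 shRNA and 18.66 FPKM with control shRNA (log2 ratio -0.65), on 248 reads with FZD2 shRNA and 411 with control shRNA. CTH was at 1.99 FPKM with FZD2 shRNA and 1.6 FPKM with control shRNA (log2 ratio 0.20), on 33.03 reads with FZD2 shRNA and 29.13 with control shRNA, and its counting interval of -0.54 to 0.99 spans equality. GPT2, the mitochondrial alanine aminotransferase, was at 6.06 FPKM with FZD2 shRNA and 6.46 FPKM with control shRNA (log2 ratio -0.08).

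Of the 8 amino acid transporters 1 was called lower (12.5%), beside 7.41% of all measured genes. On the FPKM scale the transporters had the median nearest 0 of the roles, at -0.36. In CPM their median was -0.51 and that of the transcription factors was nearer 0, at -0.44. The transporter called lower was SLC7A1, which imports arginine and lysine, at 2.92 FPKM with FZD2 shRNA and 6.9 FPKM with control shRNA, and its ratio of -1.01 only just passed the limit (-0.95 in TPM). Several carriers of neutral amino acids were abundant in both libraries. SLC1A5, a glutamine carrier, was at 113.58 FPKM with FZD2 shRNA and 152.96 FPKM with control shRNA (log2 ratio -0.43), and the related SLC1A4 was at 10.62 FPKM with FZD2 shRNA and 12.96 FPKM with control shRNA (log2 ratio -0.27). SLC38A2, a carrier of small neutral amino acids that adapts to starvation, was at 46.1 FPKM with FZD2 shRNA and 55.65 FPKM with control shRNA (log2 ratio -0.27). SLC6A9, the glycine transporter, was at 0.87 FPKM with FZD2 shRNA and 1.6 FPKM with control shRNA (log2 ratio -0.48), on 20 reads with FZD2 shRNA and 42 with control shRNA. Values for SLC1A5 included shared reads.

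SLC3A2, the heavy chain that carries several light chains to the membrane, was at 57.02 FPKM with FZD2 shRNA and 86.43 FPKM with control shRNA (log2 ratio -0.59). Its light chain SLC7A5, which imports leucine, was at 62.9 FPKM with FZD2 shRNA and 77.04 FPKM with control shRNA (log2 ratio -0.29). Its other listed light chain, SLC7A11, imports cystine for glutathione and was the highest member by ratio, at 4.19 FPKM with FZD2 shRNA and 2.62 FPKM with control shRNA (log2 ratio 0.52). The 3 genes all had shared reads. For SLC7A11 the counts were 338.51 with FZD2 shRNA and 217.5 with control shRNA, and the counting interval of 0.42 to 0.92 lay above equality.

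Among the stress transcription factors, the dimer partner CEBPG had the lowest ratio. CEBPG was at 6.59 FPKM with FZD2 shRNA and 16.58 FPKM with control shRNA, a log2 ratio of -1.21 on 205 reads with FZD2 shRNA and 529 with control shRNA. It was the only factor of 7 called lower (14.3%, beside 7.41% of all measured genes). ATF4 itself was the most abundant member, at 248.35 FPKM with FZD2 shRNA and 335.5 FPKM with control shRNA (log2 ratio -0.43), and its count interval of -0.51 to -0.37 was narrow. DDIT3, also known as CHOP and linked to stress-induced cell death, was at 27.18 FPKM with FZD2 shRNA and 46.51 FPKM with control shRNA (log2 ratio -0.75). ATF3, a stress-induced factor of the same family, was at 2.25 FPKM with FZD2 shRNA and 4.09 FPKM with control shRNA (log2 ratio -0.65), on 36 reads with FZD2 shRNA and 71 with control shRNA. CEBPB, another C/EBP dimer partner, was at 36.19 FPKM with FZD2 shRNA and 48.88 FPKM with control shRNA (log2 ratio -0.42, shared reads). NUPR1, a small stress-induced nuclear protein, was at 107.32 FPKM with FZD2 shRNA and 113.76 FPKM with control shRNA, and its count interval of -0.225 to 0.061 spans equality. ATF5, whose mRNA is also translated more under stress, was at 18.87 FPKM with FZD2 shRNA and 14.65 FPKM with control shRNA (log2 ratio 0.34, shared reads).

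The feedback and effector genes all had ratios below 0, and 3 of 6 were called lower (50%, beside 7.41% of all measured genes). Their median was -0.685. The counting intervals of TRIB3 (-0.426 to 0.063) and SESN2 (-0.699 to 0.002) span equality. DDIT4, also known as REDD1, an inhibitor of the growth kinase complex mTORC1, was at 5.89 FPKM with FZD2 shRNA and 17.55 FPKM with control shRNA (log2 ratio -1.43), on 85 reads with FZD2 shRNA and 260 with control shRNA. CHAC1, which degrades glutathione, was at 0.77 FPKM with FZD2 shRNA and 3.73 FPKM with control shRNA (log2 ratio -1.42). It had 11 reads with FZD2 shRNA and 59 with control shRNA, and the count log2 ratio was -2.39 with a wide interval (-3.47 to -1.45). VLDLR, a lipoprotein receptor, was at 6.44 FPKM with FZD2 shRNA and 14.43 FPKM with control shRNA (log2 ratio -1.05). In TPM VLDLR was at -0.945, short of 2-fold. The other 3 stayed well inside 2-fold. STC2, a secreted glycoprotein, was at 86.23 FPKM with FZD2 shRNA and 107.68 FPKM with control shRNA (log2 ratio -0.32). SESN2, a leucine-binding inhibitor of mTORC1, was at 4.13 FPKM with FZD2 shRNA and 5.24 FPKM with control shRNA (log2 ratio -0.28). TRIB3, the pseudokinase that restrains ATF4, was at 13.01 FPKM with FZD2 shRNA and 15.61 FPKM with control shRNA (log2 ratio -0.25, shared reads). So DDIT4 and CHAC1 differed by more than 2-fold while DDIT3 and TRIB3, from the same response, did not.

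XPOT, which exports tRNA from the nucleus, was at 8.51 FPKM with FZD2 shRNA and 24.1 FPKM with control shRNA (log2 ratio -1.40). Its counts of 281 with FZD2 shRNA and 817 with control shRNA were whole, and the count interval ran from -1.705 to -1.31.

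**Figure D3:**
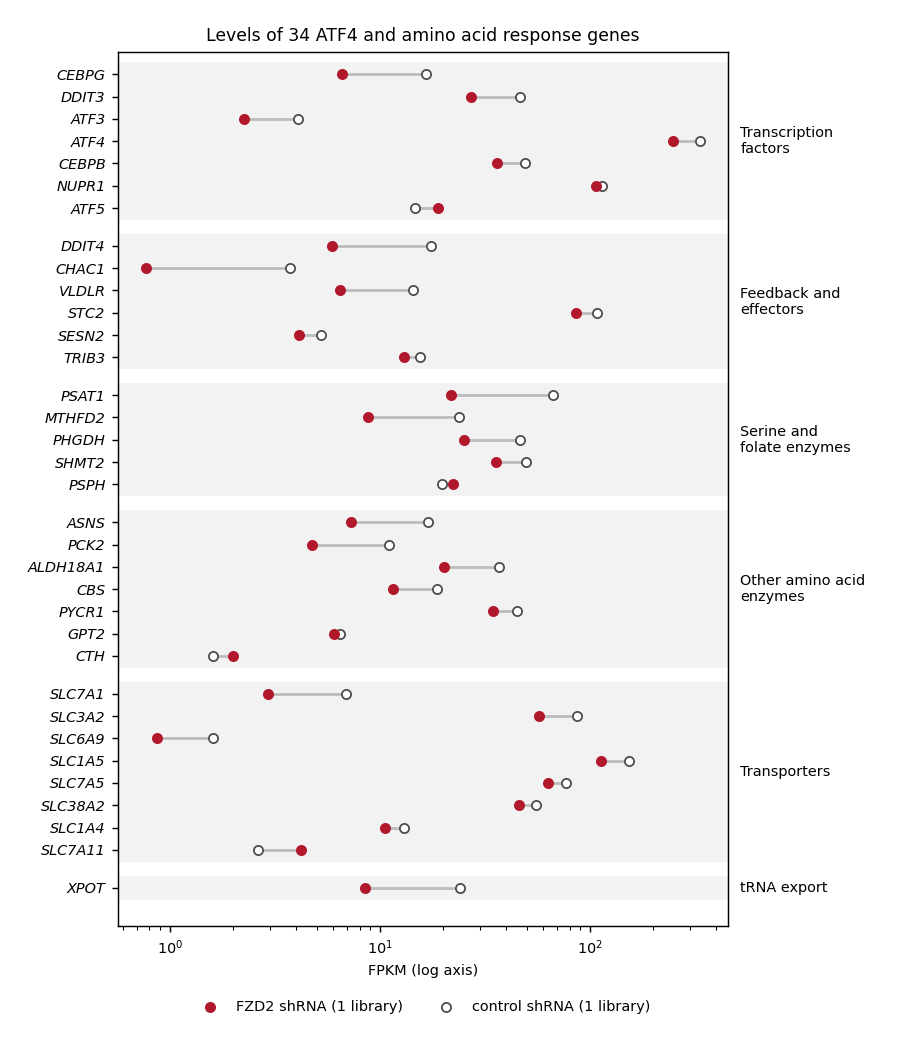
FPKM (log axis) of the 34 response genes by role, with FZD2 shRNA as filled red points and control shRNA as open points, 1 library each and no error bars. PSAT1 (21.77 FPKM with FZD2 shRNA and 67.01 FPKM with control shRNA) and CHAC1 (0.77 FPKM with FZD2 shRNA and 3.73 FPKM with control shRNA) have long bars between points, whereas NUPR1 and GPT2 nearly coincide and ATF5, PSPH, CTH and SLC7A11 have the red point at the right.

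Set side by side, the 5 serine and folate enzymes had a median log2 ratio of -0.87, the 8 transporters -0.36 and the 13 stress factors (the transcription factors with the feedback and effector genes) -0.43. Called lower were 2 of the serine and folate enzymes (40%), 1 of the transporters (12.5%) and 4 of the stress factors (30.8%). The same call was made for 7.41% of all measured genes and 10.2% of those without shared reads. The transporters' share was thus near that background, and each role holds few genes. The median of every role lay below 0 under each scaling tried. Rescaling to TPM raised the median of all measured genes by 0.14, and the medians were then -0.72 for the serine and folate enzymes, -0.20 for the transporters and -0.27 for the stress factors. The order of the transporters and the stress factors turned with the scaling: the medians were -0.51 and -0.44 in CPM, -0.49 and -0.42 with TMM scaling of the counts, and -0.63 and -0.58 with the GC trend taken out, the transporters given first in each pair. With 1 library per group, no difference between the roles could be tested. Within each role of more than 1 gene, ratios near 0 and ratios near or past 2-fold occurred together.

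**Figure D4:**
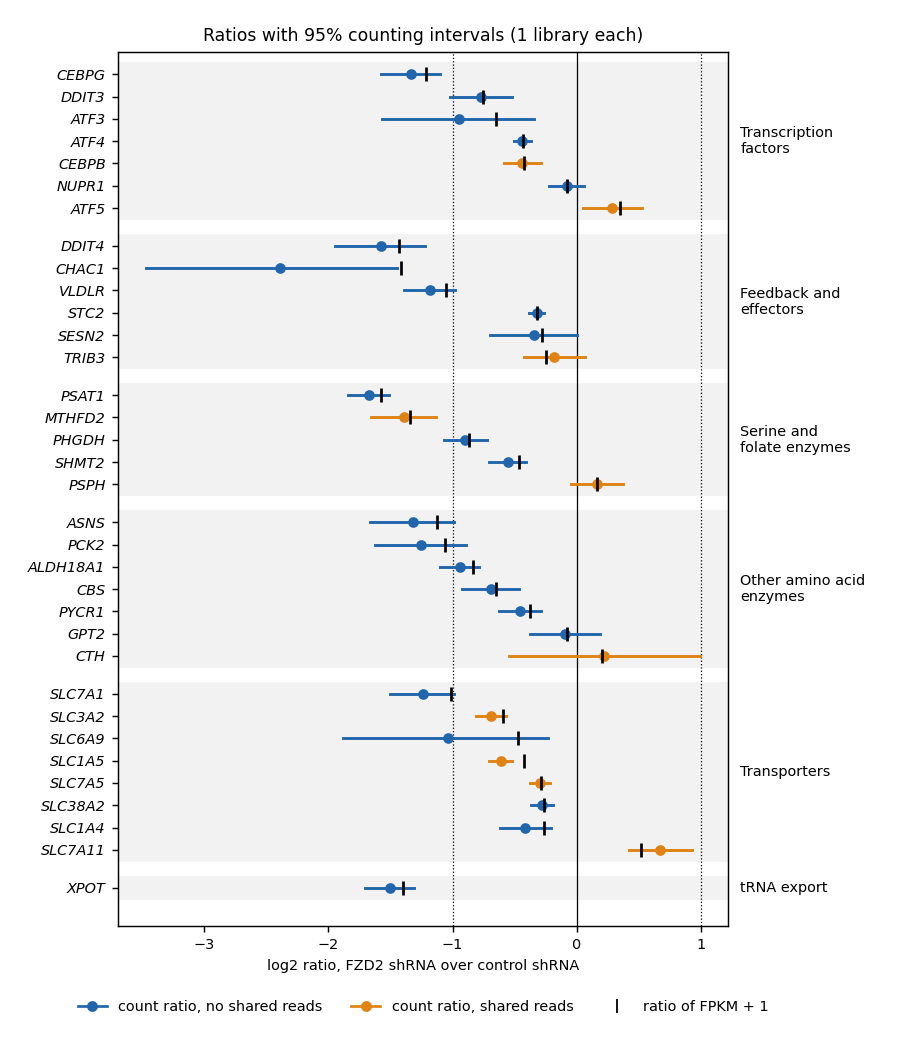
Log2 ratio of read counts scaled to library totals (points) with its 95% counting interval (bars), FZD2 shRNA over control shRNA, with the ratio of FPKM + 1 as a black tick. Blue marks genes without shared reads, orange those with shared reads, and dotted lines mark 2-fold. PSAT1 (-1.84 to -1.51), XPOT, DDIT4, CEBPG, CHAC1 and MTHFD2 lie wholly past the lower 2-fold line, and the interval of CHAC1 is the widest.

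GC content differed between the members called lower and the other members by its median, but not for each gene. The members called lower had a median transcript GC of 44.6%, and the other members 56.1%. Some went the other way: SLC7A11, the highest by ratio, had 35.4%, while DDIT4 (58.12%) and PCK2 (59.91%) were called lower. With the GC trend of genes without shared reads taken out, 7 of the 33 members with known GC content were called lower, beside 5.52% of all measured genes with known GC. DDIT4 (log2 ratio -1.63), PSAT1 (log2 ratio -1.33), PCK2 (log2 ratio -1.33), XPOT (log2 ratio -1.14), MTHFD2 (log2 ratio -1.08) and SLC7A1 (log2 ratio -1.02) kept the call, and PHGDH (log2 ratio -1.05) joined them. CEBPG (log2 ratio -0.95), ASNS (log2 ratio -0.88) and VLDLR (log2 ratio -0.81) came short of 2-fold, CHAC1 had no GC value, and SLC38A2 moved to a ratio of 0.

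Genes around the response were read from 7 further lists, of which 117 genes of 147 were measured, with 13 called lower (11.1%) and 6 called higher (5.13%) and a median of -0.19. Over all measured genes 7.41% were called lower and 15.2% higher, and over those without shared reads 10.2% and 4.19%, so the share called lower in these lists was near that background, and the counts of each list below are to be read against it. Among 21 stress-sensing kinase, eIF2 and phosphatase genes, 2 were called lower, 0 higher, and the median was -0.09. PPP1R15A, the stress-induced subunit that directs dephosphorylation of eIF2 and is itself an ATF4 pathway gene, was at 40.52 FPKM with FZD2 shRNA and 100.42 FPKM with control shRNA (log2 ratio -1.29). EIF2AK3, the kinase PERK that senses unfolded protein, was at 0.57 FPKM with FZD2 shRNA and 2.35 FPKM with control shRNA (log2 ratio -1.09, on 20 reads with FZD2 shRNA and 87 with control shRNA). EIF2AK4, the kinase GCN2 that senses uncharged tRNA, was at 32.53 FPKM with FZD2 shRNA and 16.73 FPKM with control shRNA (log2 ratio 0.92, shared reads). The last was named after its value was seen.

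Of 15 measured C/EBP and CREB/ATF factors outside the members, 2 were called lower and 0 higher (median -0.41). ATF1 was at 1.83 FPKM with FZD2 shRNA and 6.43 FPKM with control shRNA (log2 ratio -1.39), and JDP2, a repressor of the AP-1 group, at 3.26 FPKM with FZD2 shRNA and 8.14 FPKM with control shRNA (log2 ratio -1.10). Of 17 other amino acid transporters, 2 were called lower and 2 higher (median -0.55). SLC3A1, the heavy chain of another cystine carrier, was at 0.36 FPKM with FZD2 shRNA and 2.65 FPKM with control shRNA (log2 ratio -1.42) and SLC6A6, the taurine transporter, at 3.21 FPKM with FZD2 shRNA and 8.92 FPKM with control shRNA (log2 ratio -1.24). SLC36A2 (19.06 FPKM with FZD2 shRNA and 3.98 FPKM with control shRNA, log2 ratio 2.01) and SLC43A2 (9.62 FPKM with FZD2 shRNA and 1.73 FPKM with control shRNA, log2 ratio 1.96) were called higher, and both had shared reads.

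Serine, glycine and folate genes outside the members had a median of -0.38, with 3 of 17 called lower and 1 higher. TYMS, thymidylate synthase, was at 34.69 FPKM with FZD2 shRNA and 75.17 FPKM with control shRNA (log2 ratio -1.09). MTRR, methionine synthase reductase, was at 2.28 FPKM with FZD2 shRNA and 5.62 FPKM with control shRNA (log2 ratio -1.01), and GCSH, of the glycine cleavage system, at 40.03 FPKM with FZD2 shRNA and 81.11 FPKM with control shRNA (log2 ratio -1.001, shared reads). MTFMT, the mitochondrial methionyl-tRNA formyltransferase, was at 30.09 FPKM with FZD2 shRNA and 10.88 FPKM with control shRNA (log2 ratio 1.39, shared reads). Of 18 other amino acid enzymes, 3 were called lower and 1 higher (median -0.14). MAT2A, which makes S-adenosylmethionine, was at 16.17 FPKM with FZD2 shRNA and 50.03 FPKM with control shRNA (log2 ratio -1.57), and OAT, ornithine aminotransferase, at 19.14 FPKM with FZD2 shRNA and 47.19 FPKM with control shRNA (log2 ratio -1.26). PYCR3, a relative of PYCR1, was at 9.04 FPKM with FZD2 shRNA and 3.78 FPKM with control shRNA (log2 ratio 1.07, shared reads).

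Glutathione genes, downstream of SLC7A11, CBS and CTH, had a median of 0.10, with 0 of 12 called lower and 1 higher. The gene called higher was MPST, a sulfurtransferase placed in this list and not an enzyme of glutathione itself. It was at 89.96 FPKM with FZD2 shRNA and 35.63 FPKM with control shRNA (log2 ratio 1.31, or 0.83 with the GC trend taken out). Of 17 measured genes of amino acid sensing by mTORC1, 1 was called lower and 1 higher (median -0.12). RRAGA, a Rag GTPase, was at 8.81 FPKM with FZD2 shRNA and 26.44 FPKM with control shRNA (log2 ratio -1.48) and CASTOR2, which belongs to the arginine-sensor family, at 6.38 FPKM with FZD2 shRNA and 1.9 FPKM with control shRNA (log2 ratio 1.35, shared reads).

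Several of these calls lay near the limit. TYMS was at -0.945 in TPM and -0.98 with the GC trend taken out, and MTRR at -0.976 in TPM and -0.754 with the GC trend taken out, both short of 2-fold. GCSH was at -0.851 in TPM and -0.741 with the GC trend taken out. After removal of the GC trend EIF2AK3 (-0.836) and PYCR3 (0.686) did not reach 2-fold, and OAT lay at the limit. With a pseudocount of 5 FPKM, which weighs on low genes, EIF2AK3, ATF1, JDP2, SLC3A1, SLC6A6, MTRR, GCSH, PYCR3 and CASTOR2 were short of 2-fold.

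**Figure D5:**
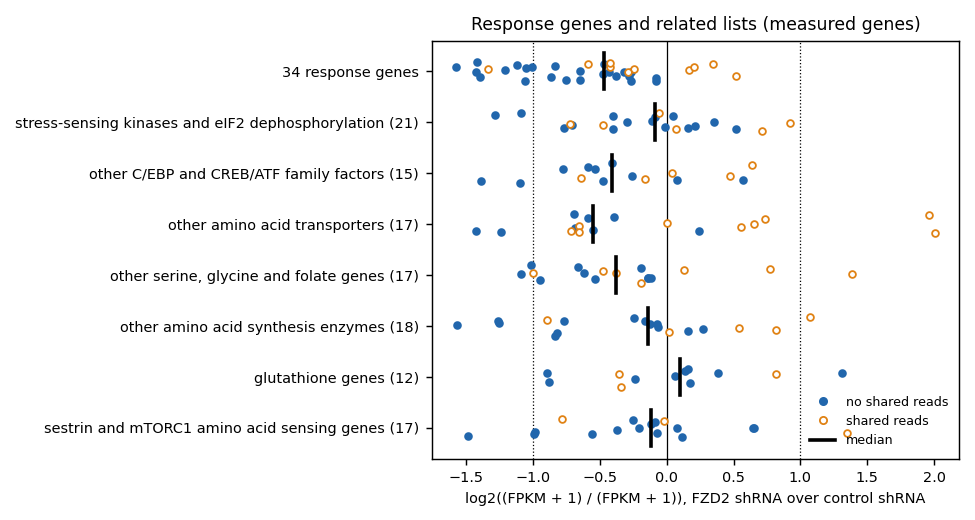
Log2 ratio of FPKM + 1, FZD2 shRNA over control shRNA, for each of the 34 response genes (top row) and each measured gene of 7 related lists, with list medians as black bars and genes with shared reads as open orange points. The response genes have a median of -0.47 and none past the upper 2-fold line, and 5 of the 6 related genes past that line are open points.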

How the data were processed

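RNA was measured in 2 libraries of SNU449 cells, sequenced on a BGISEQ-500 per the series design. Bowtie2, HISAT and build hg19 are named in the submitters' processing notes. The counting program, annotation and strand setting were not given in the sources used here. Per the file headers, the authors deposited an expected count (estimated reads, not normalized), an FPKM value and a gene length (another deposited quantity, in bases) per gene. Genes not listed were set to 0, and symbols came from RefSeq (14324 of 14377 measured genes matched).

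Log2 ratios used a pseudocount of 1 FPKM, which understates the difference of low genes, and no further scaling. Count intervals (95%) are exact conditional binomial intervals on rounded expected counts scaled to library totals. They cover counting error only, since amplified reads are not independent molecules. A count of 0 allows up to 3 counts, 3.64e-05% (FZD2 shRNA) and 3.56e-05% (control shRNA) of a library. With 1 library per group no test was possible. Transcript GC content came from GENCODE release 29 by RefSeq accession (96.1% of measured genes). Its trend was fitted by lowess (fraction 0.3) and centred before subtraction, a centring chosen after seeing the data.

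All members were named, and from each related list at most 4 genes past 2-fold with the largest ratios, and some items of these lists are not reported here. Members and lists were chosen with earlier results of these data known. The size rule and interval were tried on simulated independent Poisson counts. Such counts meet the interval's own assumption, so the trial cannot speak to shared reads, amplified reads or differences between replicates. Alternatives were pseudocounts of 0.1 and 5, no filter and 5 FPKM, TPM, the median set to 0, CPM, TMM scaling (edgeR 4.0.16), limits of 1.5-fold and 4-fold, genes without shared reads, and the GC trend. Scripts ran on Python 3.11.15 with pandas 2.3.3, NumPy 2.4.6, statsmodels 0.14.6, SciPy 1.17.1 and matplotlib 3.10.9.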

Additional observations from a re-analysis of the deposited data

How the results depend on the processing

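The count of 10 members called lower stayed within 1.5 times under 9 of the 12 alternatives, among them a pseudocount of 0.1, TPM (7), CPM (10), TMM scaling (10) and removal of the GC trend (7). Some of the 9 could hardly alter the count. All 34 members had passed the filter, so removing it kept the same genes. Raising it to 5 FPKM or dropping genes with shared reads left each ratio as it was. The median that was set to 0 was already -0.004. The 9 are thus no measure of stability. The count of members called lower was 4 with a pseudocount of 5, with 0 transporters and 1 stress factor, and FZD2 at -1.63. CEBPG, CHAC1, VLDLR, ASNS, PCK2 and SLC7A1 lost the call at that pseudocount. A limit of 1.5-fold gave 16 members, 2 of them transporters, beside 21.7% of all measured genes. At 4-fold 0 members, and so 0 serine and folate enzymes, 0 transporters and 0 stress factors, were called. In TPM VLDLR, PCK2 and SLC7A1 lost the call, so 0 transporters were called lower. The share of all measured genes called lower is not given here for either other pseudocount, TPM, CPM, TMM scaling or the 4-fold limit. That share can move with the setting too, so the member counts there cannot be set against a background. Among genes without shared reads, 1 of 3 serine and folate enzymes (PSAT1) was called lower, since MTHFD2 left the set with its ratio unchanged. With the GC trend taken out 1 of 12 stress factors with known GC content (DDIT4) was called lower, and FZD2 was at -2.29. The members called higher numbered 0 under each alternative run. The members' median was -0.64 in CPM, -0.63 with TMM scaling, -0.70 in members without shared reads and -0.66 after removal of the GC trend. Single members gave 324 values under the alternatives, of which 291 moved by less than the gene's counting error and 33 by more. Counting error here is the distance from the gene's count ratio to the end of the interval on the side of the move. Of the called ratios 0 changed sign. Many of the 291 were fixed in advance. Removing the filter, raising it to 5 FPKM or keeping only genes without shared reads cannot change a single gene's ratio. The median of all measured genes was -0.004, so setting it to 0 hardly moved any ratio. The 291 values are thus no measure of stability. No paired analysis was possible because each group has 1 library, and for the same reason no library could be left out. Depth limits CHAC1, CTH, SLC6A9 and ATF3 most, each with at most 71 reads in a library.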

Other observations

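The deposited gene length, which enters FPKM, differed between the libraries for some members. It was at least 5% shorter with FZD2 shRNA for 8 of 34 members (ATF3, CHAC1, ASNS, CTH, SLC3A2, SLC1A4, SLC1A5 and SLC6A9) and at least 5% longer for 1 (TRIB3). Over 14148 measured genes listed in both libraries 8.24% were at least 5% shorter with FZD2 shRNA and 3.08% at least 5% longer. SLC1A5 had a length of 1784.12 bases with FZD2 shRNA and 2017.27 bases with control shRNA, and SLC6A9 had 2776 bases with FZD2 shRNA and 3085 bases with control shRNA. Where the length is shorter, the FPKM ratio is nearer 0 than the count ratio for a gene below the control level: SLC1A5 was at -0.43 by FPKM + 1 and -0.61 by counts, and SLC6A9 at -0.48 and -1.035, the pseudocount also acting on the second. What the differing lengths stand for was not tested.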
